A study of Mus musculus with 24 samples.

Results

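The miR-181 family of the mouse was followed here across 8 tissues and 3 lens groups. The 4 members were the miRNAs that the array files name mmu-miR-181a-5p, mmu-miR-181b-5p, mmu-miR-181c-5p and mmu-miR-181d-5p, taken by name from the 1881 mouse miRNAs on the array. Total RNA of C57BL/6J mice was labeled with cyanine 3 and applied to 24 one-color arrays, 1 for each tissue and lens group. The tissues were cornea, iris, lens, retina, RPE/choroid (labeled choroid), sclera and 2 sites that the labels name SCN and LGN without spelling them out, which were taken as brain regions. The 3 lens groups were normal (labeled control, without a lens), 0 D lens, and −30 D lens, which the labels call lens-induced. Per the methods of the study, male mice had the −30 D lens fixed on the right eye at 3 weeks of age and wore it for 3 weeks, the normal mice had no treatment, and equal amounts of RNA from 3 mice were pooled for an ocular tissue, with 100 ng applied to an array. These methods cover the ocular tissues of the normal and −30 D groups. Sex, age, duration and pooling of the 0 D arrays and of the SCN and LGN arrays are not given in the sources used here.

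A miRNA is a short RNA that, bound to an Argonaute protein, pairs with messenger RNAs mainly through its seed, the bases near its 5′ end, and lowers their translation or stability. Members of a family share the seed and therefore much of their predicted target range. The miR-181 family is known from lymphocyte development, where miR-181a tunes T cell receptor signaling, and from the nervous system, where miR-181a is abundant in inner retinal neurons.

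The mature sequences are shown because the members differ by few bases, and array probes have to tell them apart. They were read from RefSeq (GRCm38.p6) and are printed 5′ to 3′ with the seed, bases 2 to 8, in capitals.
mmu-miR-181a-5p: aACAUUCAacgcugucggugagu
mmu-miR-181b-5p: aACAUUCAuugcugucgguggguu
mmu-miR-181c-5p: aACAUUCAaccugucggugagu
mmu-miR-181d-5p: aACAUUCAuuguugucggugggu
The seed was the same in all 4 members. Of 1608 miRNAs on the array that matched a RefSeq mature sequence, 4 had these bases 2 to 8, which were the members themselves. With positions counted from 1 at the 5′ end, miR-181b-5p differed from miR-181a-5p by A9U, C10U and A21G and by 1 further base at the 3′ end. miR-181d-5p differed from miR-181b-5p by C12U and lacked that last base. miR-181c-5p matched miR-181a-5p in 22 of 23 aligned positions, and the remaining position was a base that miR-181c-5p lacks.

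The members come from 6 hairpin genes at 3 places in the genome. Mir181a-1 (chr1:137966455-137966541) lies 97 bases before Mir181b-1 (chr1:137966639-137966718), and no other gene of the RefSeq table overlapped either. Mir181a-2 (chr2:38852735-38852810) lies 1019 bases before Mir181b-2 (chr2:38853830-38853918), and both lie within the span of Nr6a1, a nuclear receptor gene, and of the noncoding RNA gene Nr6a1os. Mir181d (chr8:84178716-84178787) and Mir181c (chr8:84178873-84178961) lie 85 bases apart and overlapped no other gene of the table. The mature miR-181a-5p sequence is the same from both of its hairpins, as is that of miR-181b-5p, so that the 5p signal cannot be assigned to chromosome 1 or chromosome 2. The other arm of a hairpin, the 3p miRNA, differs between the hairpins and was measured separately.

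Each member was measured by 2 probes of 15 spots each. A probe counted as detected when its signal exceeded 3 times its error, and the signal of a member was the sum over its detected probes. The signals were then scaled between arrays, to an equal upper quartile of the 79 miRNAs found on all of them, so that the values given are scaled signals in arbitrary units with the error within 1 array, unless they are called unscaled. How far the probes of a member also bind the others was not tested. Probes differ in response, and the levels of different members are therefore not compared as amounts of RNA. Between 129 and 249 miRNAs were detected per array, fewest in cornea and lens, where the lowest detected scaled signal of an array was 4.06 to 9.93 against 1.09 to 4.35 in the other tissues. The 8 arrays of a lens group shared a slide of their own, and an effect of the slide cannot be told apart from one of the lens. The lens groups served as the 3 arrays of a tissue, and the p-values measure the spread between these single arrays of pooled RNA only. The tissue labels were checked against miRNAs of known cell types. miR-183-5p, miR-96-5p and miR-182-5p of photoreceptors were brightest in retina, miR-184-3p of the lens and corneal epithelium in cornea and lens, miR-205-5p and the other 2 surface epithelium miRNAs were detected on all 3 arrays in cornea, and the 3 oligodendrocyte miRNAs were detected on all 3 arrays in SCN and LGN. The 3 striated muscle miRNAs summed to 361 to 402 in the lens arrays against at most 161 in any other tissue. The 2 pigment cell miRNAs, miR-204-5p and miR-211-5p, did not single out RPE/choroid. They summed to 830 to 1009 there, to 1227 to 1377 in lens, 1067 to 1211 in iris and 670 to 858 in retina.

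miR-181a-5p, the member with known roles in T cells and inner retina, was detected on all 24 arrays and was highest in retina. Its scaled signal in retina was 328 in the normal group, 339 in the 0 D group and 293 in the −30 D group. The LGN followed with 48.1, 65.8 and 69.8 in the same order, and the other 6 tissues ranged from 17.6 in the normal iris to 46.5 in lens. The lowest of the 3 retina values thus stood well above the highest value elsewhere, that of the −30 D LGN, with no overlap. Within each lens group, the LGN reached 14.7% to 23.9% of the retina level, lens 11.8% to 15.9%, RPE/choroid 11.6% to 11.9%, SCN 8.76% to 11.1%, sclera 6.08% to 7.46%, cornea 5.56% to 6.84% and iris 5.36% to 8.64%. Photoreceptor miR-183-5p reached 5.84% to 9.27% of its retina level in RPE/choroid and 2.97% to 6.78% in sclera, and the 5 miRNAs of the retina list summed to 1389 to 2428 in RPE/choroid against 24751 to 27634 in retina. Their part in the values of these tissues was not tested.

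miR-181b-5p, which is transcribed beside miR-181a at both places, was also detected on all 24 arrays and highest in retina. The retina values were 328 in the normal, 302 in the 0 D and 273 in the −30 D group. Lens was next with 99.2, 116 and 99.9, and the LGN had 62.6, 70.2 and 82.1. The remaining tissues lay between 14.7 in cornea and 39.2 in RPE/choroid. The retina arrays again stood above all others without overlap. The place of the lens in this order depended on the scaling. miR-181b-5p in lens exceeded that in LGN by 0.56 ± 0.16 (SE) on the log2 scale with the signals scaled and by 0.75 ± 0.16 after quantile normalization, but fell below it by −1.41 ± 0.20 without scaling, since the lens arrays, with their few detected miRNAs, had the largest scaling factors.

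miR-181c-5p, encoded beside miR-181d, was detected on 18 of 24 arrays, in every tissue but cornea and lens, where no array detected it. In retina it had 90.5 in the normal, 87.1 in the 0 D and 78.8 in the −30 D group. In SCN it had 65.6, 69.2 and 76.9, so that the SCN reached 72.5% to 97.5% of the retina level within the lens groups. Iris followed with 39.8, 40.0 and 38.8, the LGN with 30.5, 34.3 and 35.5, RPE/choroid with 21.4 to 22.3, and sclera with 11.4 to 19.2. With this scaling retina and SCN lay close together for this member, whereas for miR-181a-5p and miR-181b-5p the SCN stayed at or below 11.4% of retina. The closeness depended on the scaling, since retina exceeded SCN for miR-181c-5p by 0.91 ± 0.28 log2 units without scaling and by 1.02 ± 0.25 after quantile normalization. Against a reference value on the arrays that did not detect it, miR-181c-5p in retina was 8.44-fold higher for cornea and 7.93-fold higher for lens. In SCN it was 6.96-fold and 6.54-fold above the same values. The reference is the higher of the lowest detected signal and the miRNA's own summed probe signal on each dim array. It leaves out the detection limit of 3 errors, so that these folds are not strict lower bounds.

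miR-181d-5p was the dimmest member. It was detected on 15 of 24 arrays and on none of cornea, lens and sclera. In retina it had 16.1 in the normal, 16.1 in the 0 D and 10.4 in the −30 D group, and in SCN 12.2, 13.2 and 12.9, so that the 2 tissues overlapped. Iris had 7.50 to 7.74, LGN 5.69 to 7.14 and RPE/choroid 4.07 to 5.32. Of its 2 probes, the dimmer one was detected on 2 arrays only, the normal and 0 D retina, and every other value rests on 1 probe. On the brighter probe alone the retina values were 10.4 to 12.5 and the SCN values 12.2 to 13.2. The level in retina was 2.23-fold above the reference value of cornea, 1.67-fold above that of lens and 3.22-fold above that of sclera. These folds are again not strict lower bounds. Whether a level like that of retina would be detected on the cornea and lens arrays was not tested.

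**Figure D1:**
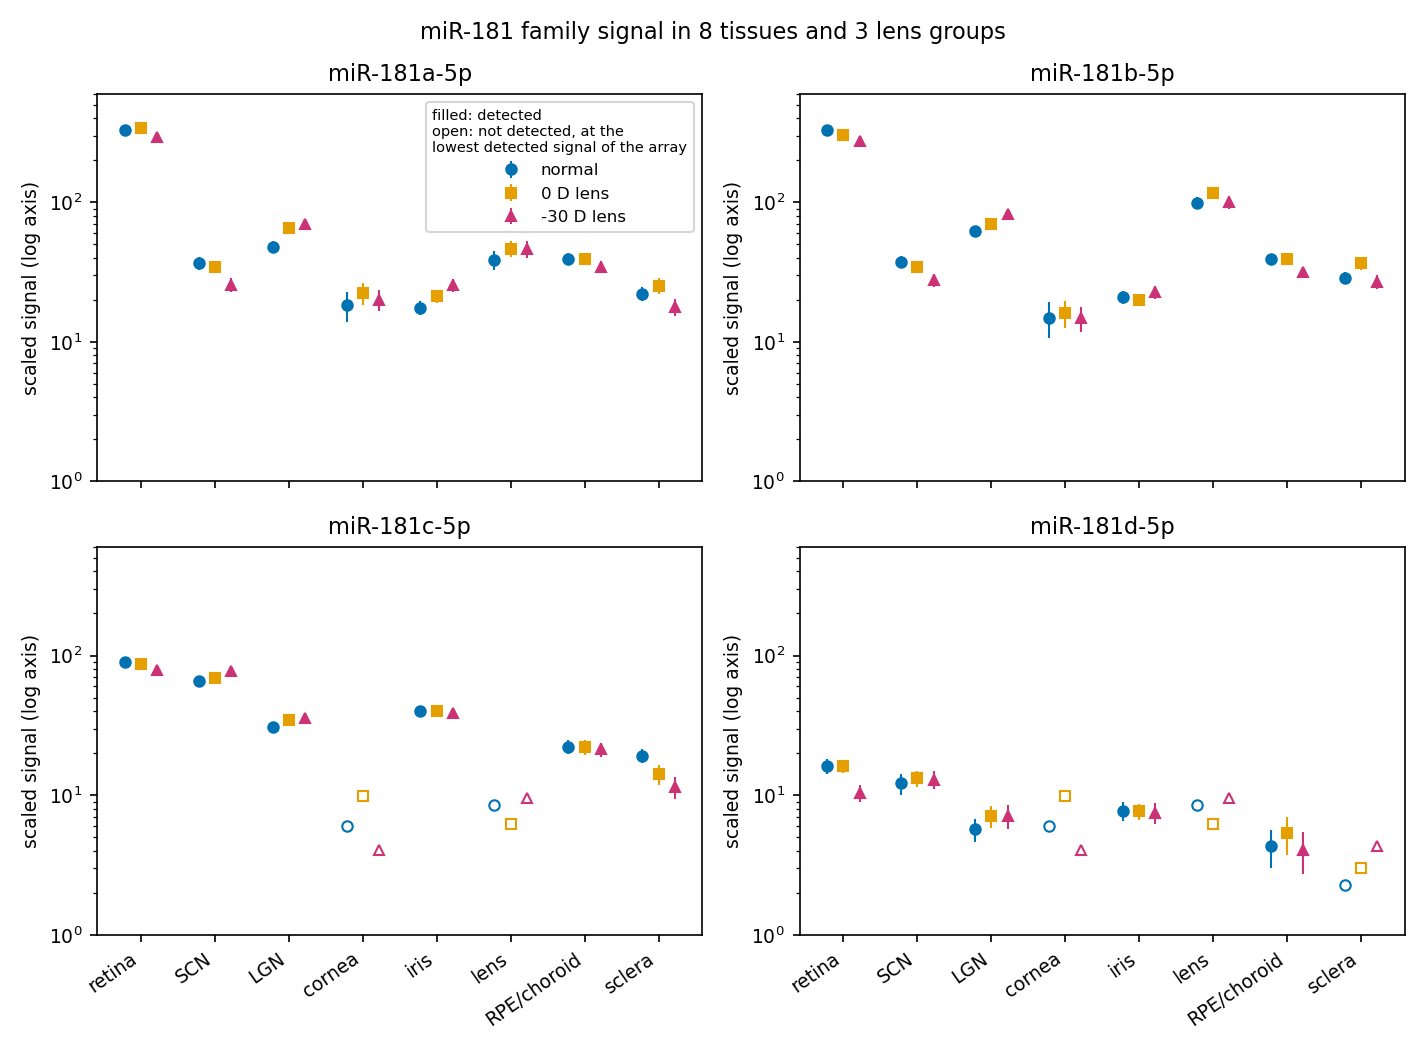
Scaled signal of each member (log axis, arbitrary units) by tissue, with 1 point for each lens group and bars for the error within the array. Open symbols mark arrays that did not detect the miRNA, drawn at the lowest detected signal of that array. miR-181a-5p and miR-181b-5p stand at 273 to 339 in retina, above all other arrays. With this scaling miR-181c-5p and miR-181d-5p have retina and SCN side by side, and they are not detected in cornea and lens.

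The first comparison asked whether the members differed between retina and the other 5 ocular tissues. All 4 were higher in retina in a limma fit over 352 miRNAs detected on at least 3 arrays, with the tissue and the lens group as terms. On the log2 scale, miR-181a-5p was higher by 3.55 ± 0.14 (SE; 3 against 15 arrays; adjusted p = 2.16e-13), an 11.7-fold difference, and ranked 15th from the top among the 352. miR-181b-5p was higher by 3.20 ± 0.13 (adjusted p = 1.64e-13), or 9.17-fold. miR-181c-5p was higher by 2.56 ± 0.19 (adjusted p = 1.2e-09) and miR-181d-5p by 1.32 ± 0.22 (adjusted p = 2.66e-05). The last 2 values mix measured signals with arrays set to their lowest detected signal (6 of 15 for miR-181c-5p and 9 of 15 for miR-181d-5p), so that they are no measured folds. For comparison, 30.7% of the 352 miRNAs were called higher in retina, and the median difference over all of them was −0.70. The 3 retina arrays stood above all other 21 arrays in 9.38% of the 352 miRNAs, among them miR-181a-5p, miR-181b-5p and miR-181c-5p. With a normexp background correction, which compresses dim signals, the value of miR-181d-5p turned to −0.20 (adjusted p = 0.0145), and its direction is therefore not settled. In the same arrays the 5 neuronal miRNAs summed to 10396 to 11644 in retina and to at most 1020 in the other ocular tissues. In bulk tissue, fewer cells of a type and less RNA per cell cannot be told apart.

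The second comparison set SCN and LGN against the 5 ocular tissues other than retina. With the scaled signals, the mean of the brain regions was above the mean of the 5 ocular tissues for all 4 members. Of the 352 miRNAs, 37.5% were called higher in this comparison. miR-181c-5p alone kept its call in every alternative. The differences in log2 units were 0.69 ± 0.11 for miR-181a-5p (6 against 15 arrays; adjusted p = 1.28e-05), 0.56 ± 0.10 for miR-181b-5p (adjusted p = 2.6e-05), 1.75 ± 0.15 for miR-181c-5p (adjusted p = 3.07e-09) and 0.72 ± 0.17 for miR-181d-5p (adjusted p = 0.000608). The last 2 members were detected on 9 and 6 of the 15 ocular arrays. The rest were set to their lowest detected signal, so that these 2 values are again no measured folds. After quantile normalization, miR-181a-5p differed by 0.11 (adjusted p = 0.404), miR-181b-5p by −0.036 (adjusted p = 0.721) and miR-181d-5p by 0.19 (adjusted p = 0.469). With normexp they differed by 0.089 (adjusted p = 0.129), 0.097 (adjusted p = 0.0957) and, in the opposite direction, −0.18 (adjusted p = 0.00494). With the total gene signal printed in the files, miR-181a-5p differed by −0.25 (adjusted p = 0.29) and miR-181b-5p by 0.19 (adjusted p = 0.13). This total departed by over 1% from the sum of the probes on 11 of 24 arrays for miR-181a-5p and on 3 of 24 for miR-181b-5p. miR-181c-5p lay at 0.29 to 4.20 over the alternatives. Single tissues did not all follow these means. In the limma contrasts of tissue pairs, miR-181b-5p in lens lay above SCN (1.67 ± 0.16, adjusted p = 5e-08) and above LGN (0.56 ± 0.16, adjusted p = 0.00515). miR-181a-5p in lens lay above SCN (0.46 ± 0.19, adjusted p = 0.0351) but below LGN (−0.47 ± 0.19, adjusted p = 0.0324). Without scaling, lens minus SCN was −1.04 for miR-181a-5p and 0.17 for miR-181b-5p.

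The third comparison set retina against SCN and LGN. miR-181a-5p was higher in retina by 2.86 ± 0.16 (3 against 6 arrays; adjusted p = 4.2e-11) and miR-181b-5p by 2.63 ± 0.14 (adjusted p = 2.43e-11) on the log2 scale, that is 7.27-fold and 6.20-fold. miR-181c-5p was higher by 0.82 ± 0.22 (adjusted p = 0.00316) and miR-181d-5p by 0.60 ± 0.25 (adjusted p = 0.0413). Of the 352 miRNAs, 24.1% were called higher in retina in this comparison, and the median was −0.27. The call of miR-181c-5p was lost without the normal arrays (0.72, adjusted p = 0.0816). That of miR-181d-5p was lost without the normal arrays (0.42, adjusted p = 0.366) and without the 0 D arrays (0.53, adjusted p = 0.144), and it was 0.38 (adjusted p = 0.0808) with the sum over all probes and 0.60 (adjusted p = 0.0547) with an intensity trend. Its direction turned with normexp (−0.020, adjusted p = 0.828) and is therefore not settled. With the total gene signal printed in the files it was −1.05 (adjusted p = 0.032). That total departed by over 1% from the sum of the probes on 13 of the 15 arrays that detected miR-181d-5p, and does not bear on the direction. Photoreceptor miR-96-5p and miR-182-5p were not detected on any SCN or LGN array. miR-183-5p was detected on 1 SCN array, at 0.0845% of its retina level, and on 1 LGN array, at 0.0409%.

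**Figure D2:**
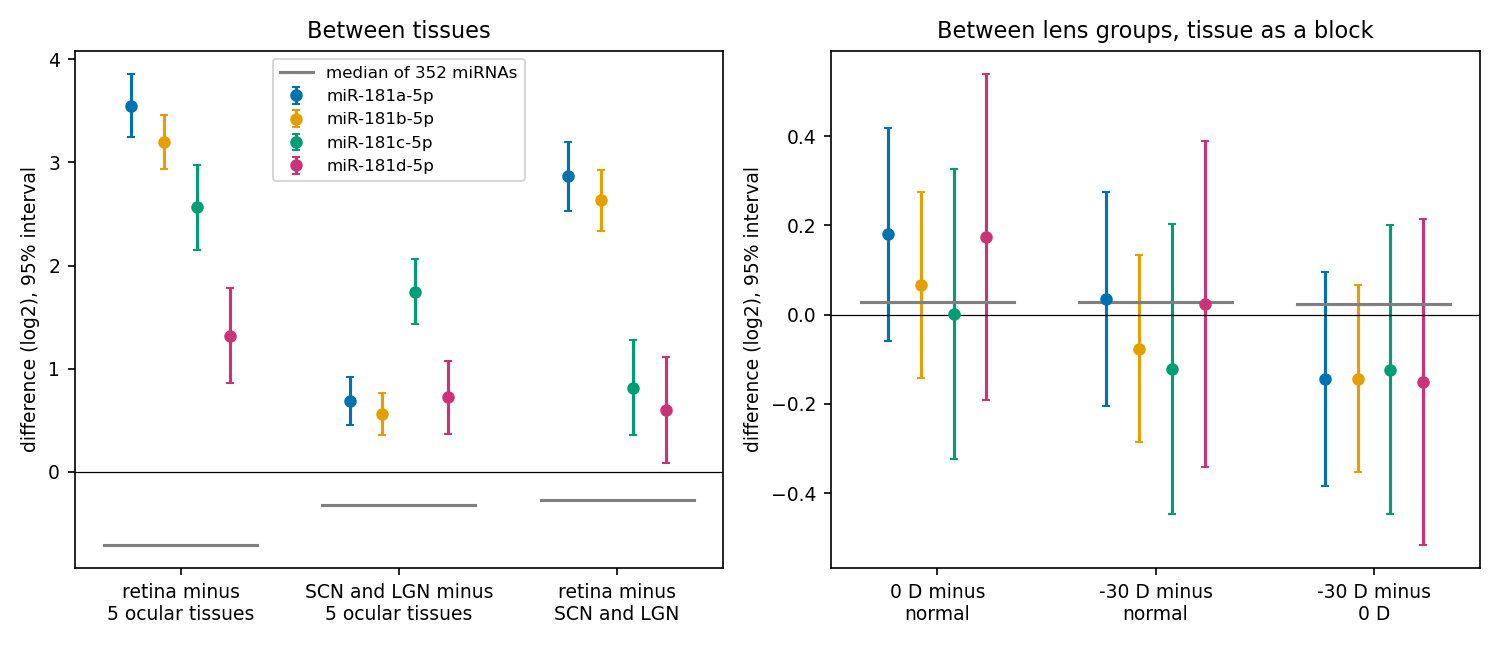
Difference in log2 scaled signal for each member (points, 95% intervals) in the 3 tissue comparisons on the left and the 3 lens group comparisons on the right, with grey lines at the median of all 352 miRNAs tested. In the retina comparisons the intervals of miR-181a-5p and miR-181b-5p lie above 2 log2 units, and on the right every interval includes 0. The vertical axes differ in range.

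Every pair of tissues was then compared for each member, 28 pairs a member, with p-values adjusted over all pairs and miRNAs. Of all 9856 such tests, 70.3% were called in either direction. Of 28 pairs each, 23 were called for miR-181a-5p, 25 for miR-181b-5p, 25 for miR-181c-5p and 18 for miR-181d-5p. The counts of the last 2 include pairs with tissues that did not detect the member, where the lowest signals of the arrays enter. For miR-181d-5p, lens and sclera (adjusted p = 0.000367) and cornea and sclera (adjusted p = 0.00431) were called with both undetected. Lens, undetected, was called above RPE/choroid (adjusted p = 0.0168). Such calls are no measured differences. A called difference between 2 tissues was the rule on these arrays, for the members as for all miRNAs. For miR-181a-5p the order was retina, LGN, lens, RPE/choroid, SCN, sclera, iris and cornea, in which the neighbors lens and RPE/choroid (adjusted p = 0.288), RPE/choroid and SCN (adjusted p = 0.264) and sclera, iris and cornea (adjusted p from 0.653 to 0.899) did not differ beyond their spread. Below LGN this order depended on the scaling. Without scaling, lens moved to rank 7 and iris to rank 4, with iris minus lens going from −1.05 to 1.04 and lens minus RPE/choroid from 0.22 to −1.64 log2 units, and after quantile normalization SCN moved to rank 7. For miR-181b-5p the order was retina, lens, LGN, RPE/choroid, SCN, sclera, iris and cornea, and RPE/choroid, SCN and sclera (adjusted p from 0.164 to 0.561) were not separated. This too depended on the scaling. After quantile normalization the pairs among these tissues were called, among them RPE/choroid and sclera (adjusted p = 0.0049) and sclera and SCN (adjusted p = 0.0187). SCN then moved to rank 8, with iris minus SCN going from −0.64 to 0.52 log2 units. For miR-181c-5p retina and SCN were not separated (0.28 ± 0.25, adjusted p = 0.33), nor were iris and LGN (adjusted p = 0.389). For miR-181d-5p retina and SCN were not separated (0.12 ± 0.28, adjusted p = 0.707), nor were iris and LGN (adjusted p = 0.521) or LGN and RPE/choroid (adjusted p = 0.0982). Retina ranked first for all 4 members with the scaled signals, without scaling and after quantile normalization. The difference of miR-181c-5p between retina and SCN passed the threshold without scaling (0.91 ± 0.28, adjusted p = 0.0071) and after quantile normalization (1.02 ± 0.25, adjusted p = 0.0017). That of miR-181d-5p passed it without scaling (0.76 ± 0.28, adjusted p = 0.0241) but not after quantile normalization (0.81 ± 0.41, adjusted p = 0.0945).

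The 2 brain regions differed in opposite directions for the members a and b and the members c and d. miR-181a-5p was lower in SCN than in LGN by −0.92 ± 0.19 (adjusted p = 0.000241), and miR-181b-5p by −1.12 ± 0.16 (adjusted p = 7.78e-06). miR-181c-5p was higher in SCN by 1.08 ± 0.25 (adjusted p = 0.000953), and miR-181d-5p by 0.95 ± 0.28 (adjusted p = 0.00618). The 3 SCN arrays did not overlap with the 3 LGN arrays for any of the 4 members, which held for 49.4% of the 352 miRNAs. The directions stayed with every scaling, but the size did not. Without scaling, miR-181c-5p was higher in SCN by 0.60 ± 0.28 (adjusted p = 0.0679) and miR-181d-5p by 0.48 ± 0.28 (adjusted p = 0.155), and after quantile normalization by 0.49 ± 0.25 (adjusted p = 0.0921) and 0.26 ± 0.41 (adjusted p = 0.602), so that these calls were lost. The unscaled signals of miR-181c-5p in SCN (51.2 to 99.7) and LGN (40.8 to 56.7) overlapped. The 3 oligodendrocyte miRNAs summed to 678 to 992 in LGN and 241 to 372 in SCN, and the part of a difference in cell makeup was not tested.

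The ratio of 2 members on the same array does not depend on a scaling by 1 factor per array, though quantile normalization can move it. Taken before quantile normalization, it shows how the makeup of the family moved. The log2 ratio of b over a was −0.16 to −0.0018 in retina, −0.0086 to 0.11 in SCN, 0.094 to 0.38 in LGN and −0.12 to 0.0024 in RPE/choroid. It was −0.16 to 0.25 in iris and −0.48 to −0.29 in cornea. Lens stood apart with 1.35 in the normal, 1.32 in the 0 D and 1.11 in the −30 D group, above the next highest, sclera with 0.38 to 0.60. Both probes of miR-181b-5p, but only 1 of miR-181a-5p, were detected in lens and in sclera. On the brighter probe of each member, the lens lay 2.53 log2 units below retina for miR-181a-5p and 1.44 units below it for miR-181b-5p, so that the shift in lens was present with single probes as well. In sclera the brighter probes gave 17.8 to 25.3 for miR-181a-5p and 19.7 to 26.6 for miR-181b-5p. The sclera ratio therefore rested in part on the dimmer probe of miR-181b-5p. The normal iris and the −30 D SCN also had 2 detected probes of miR-181b-5p but 1 of miR-181a-5p. There the brighter probes of b and a gave 15.5 and 17.6 in iris and 20.2 and 25.7 in SCN. In cornea only 1 probe of each was detected. On the brighter probes cornea lay 3.65 log2 units below retina for miR-181a-5p and 3.75 for miR-181b-5p. Photoreceptor miR-183-5p in lens was 0.792% to 3.01% of retina, whereas miR-181b-5p in lens was 30.3% to 38.4%. The striated muscle miRNAs were also highest in lens, and their part was not tested.

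The ratio of miR-181c-5p to miR-181a-5p moved far more. Its log2 value was −1.96 to −1.86 in retina, −0.98 to −0.65 in LGN, −0.83 to −0.68 in RPE/choroid and −0.84 to −0.21 in sclera. It was 0.62 to 1.18 in iris and 0.85 to 1.58 in SCN. The 1.18 of the normal iris and the 1.58 of the −30 D SCN come from arrays that detected only 1 probe of miR-181a-5p. Iris and SCN were thus the tissues in which miR-181c-5p outshone miR-181a-5p on all 3 arrays, and they did not overlap with any other tissue. In cornea and lens miR-181a-5p was detected while miR-181c-5p, which differs from it by 1 base, was not. Within the family signal, miR-181c-5p made up 41.2% to 46.3% in iris and 43.3% to 53.7% in SCN, but 11.7% to 12.04% in retina. These are shares of signal, not of molecules.

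The ratio of miR-181d-5p to miR-181c-5p spanned a narrower range, −2.93 to −2.05, over the tissues in which both were detected. The log2 ratio of d over c was −2.39 to −2.36 in iris, −2.57 to −2.39 in SCN, −2.42 to −2.27 in LGN, −2.39 to −2.05 in RPE/choroid and −2.93 to −2.44 in retina. The lowest value was that of the −30 D retina, where the dimmer probe of miR-181d-5p was not detected. That probe added to the normal and 0 D retina values and to no other tissue. On the brighter probe of each member, retina exceeded iris, RPE/choroid, SCN and LGN by 1.09, 1.96, 0.28 and 1.33 log2 units for miR-181c-5p. For miR-181d-5p the same differences were 0.61, 1.35, −0.14 and 0.82. With single probes the mean ratio was thus lowest in retina. The errors of single ratios were 0.19 to 0.50. Over the 24 arrays, the log2 scaled signals correlated at r = 0.93 for miR-181a-5p with miR-181b-5p, at 0.58 for miR-181c-5p with miR-181d-5p and at 0.39 to 0.54 for the other 4 pairs. The arrays share tissues and scaling, and undetected arrays sit at their lowest signal, so that these are descriptions without a test.

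**Figure D3:**
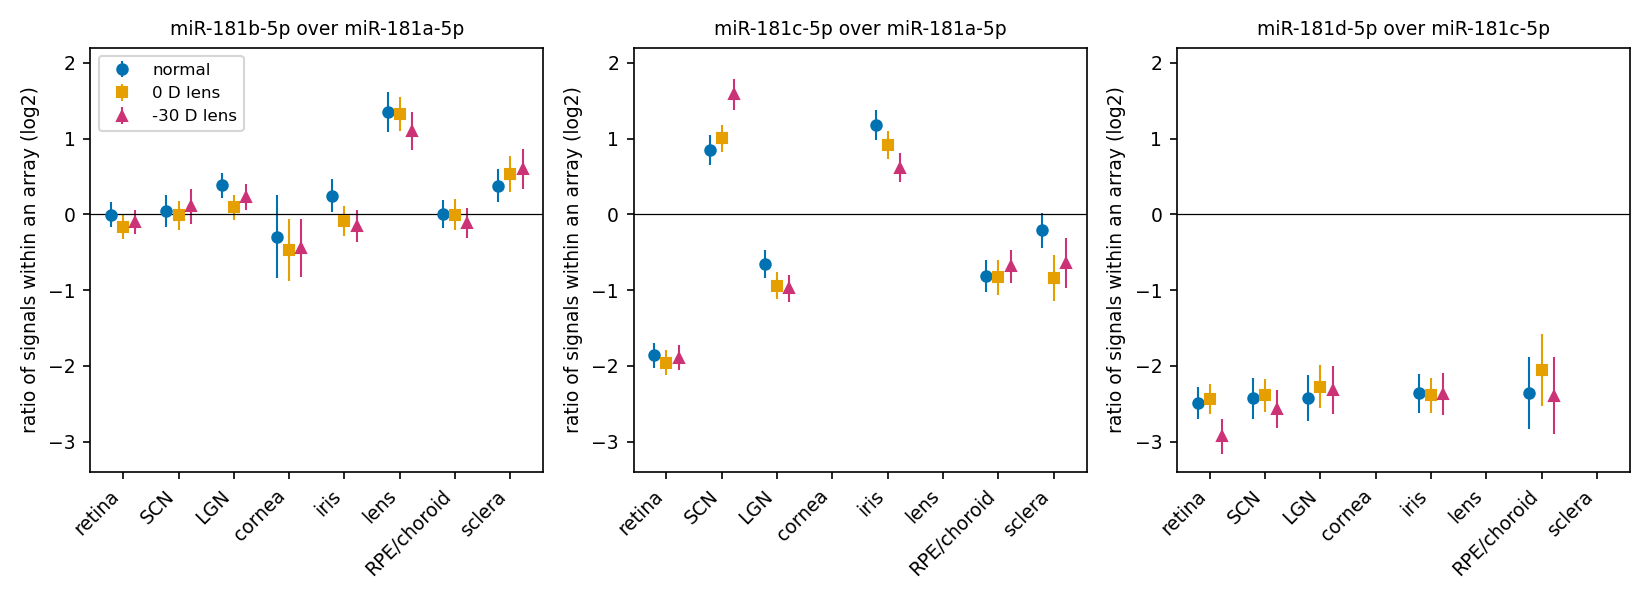
Log2 ratio of the signals of 2 members on the same array (points, 1 for each lens group; bars, propagated error) by tissue, for miR-181b-5p over miR-181a-5p, miR-181c-5p over miR-181a-5p and miR-181d-5p over miR-181c-5p. Tissues without a point did not detect 1 of the members. The first ratio departs in lens (1.11 to 1.35), the second runs from −1.96 in retina to 1.58 in SCN, and the third stays between −2.93 and −2.05.

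The opposite arms of the hairpins were on the array as 6 further miRNAs. mmu-miR-181a-1-3p, from the hairpin on chromosome 1, was detected on 6 arrays, all of retina and LGN. Its scaled signal was 14.9 in the normal, 17.9 in the 0 D and 13.7 in the −30 D retina, and 3.27, 4.47 and 4.93 in the LGN. These are the 2 tissues in which miR-181a-5p was highest. In the fit it was higher in retina than in SCN and LGN by 2.38 ± 0.28 (adjusted p = 7.37e-07) on the log2 scale, with the SCN arrays at their lowest detected signal. mmu-miR-181a-2-3p, mmu-miR-181b-1-3p, mmu-miR-181b-2-3p, mmu-miR-181c-3p and mmu-miR-181d-3p were not detected on any of the 24 arrays, which bounds their signal but does not show that they were absent.

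The miRNAs with the pattern most like each member were sought among the 77 others detected on all 24 arrays, by Pearson's r of the log2 scaled signals over the 24 arrays. For miR-181a-5p the highest were miR-124-3p, the abundant miRNA of neurons (r = 0.79), miR-423-5p (0.69), let-7g-5p (0.68), miR-29c-3p (0.67) and miR-30b-5p (0.59). For miR-181b-5p they were miR-124-3p (0.77), miR-423-5p (0.69), miR-342-3p (0.54), miR-29c-3p (0.53) and miR-331-3p (0.52). For miR-181c-5p they were miR-29c-3p (0.95), miR-361-5p (0.94), let-7g-5p (0.93), miR-345-5p (0.93) and let-7d-5p (0.90), and miR-124-3p was not among them. For miR-181d-5p they were let-7g-5p (0.61), miR-29c-3p (0.56), miR-149-5p, miR-331-3p and miR-125a-5p (each 0.55). The arrays share tissue, scaling and, for the last 2 members, the undetected tissues, so that r is a description.

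The last question was whether lens wear went with a change of the family. With the tissue as a block, no member was called different between lens groups (8 against 8 arrays). This fit can test only a change common to the tissues, so that opposite changes in single tissues would cancel. Each lens group also lay on its own slide. Between 0 D and normal, miR-181a-5p differed by 0.18 ± 0.11 (95% interval −0.059 to 0.42; adjusted p = 0.834), miR-181b-5p by 0.067 ± 0.099 (adjusted p = 0.939), miR-181c-5p by 0.0013 ± 0.15 (adjusted p = 0.995) and miR-181d-5p by 0.17 ± 0.17 (adjusted p = 0.939). Between −30 D and normal the members differed by 0.035 ± 0.11, −0.076 ± 0.099, −0.12 ± 0.15 and 0.023 ± 0.17 in the order a to d, with adjusted p from 0.99 to 0.997 in limma. Between −30 D and 0 D all 4 values were negative, at −0.14 ± 0.11, −0.14 ± 0.099, −0.12 ± 0.15 and −0.15 ± 0.17, with adjusted p from 0.724 to 0.952. Over the 3 comparisons the 95% intervals lay within −0.38 to 0.42 for miR-181a-5p, −0.35 to 0.28 for miR-181b-5p, −0.45 to 0.33 for miR-181c-5p and −0.52 to 0.54 for miR-181d-5p. Over all 352 miRNAs, limma called 0% between 0 D and normal, 0% between −30 D and normal (23 and 15 miRNAs at an unadjusted p under 0.05) and 1.99% between −30 D and 0 D. 

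Within single tissues the lens groups were compared by the ratio of 2 arrays, without a test, using the criterion of the study, a ratio above 2 or below 0.5 where both arrays detect the miRNA. Each member was detected on all 3 arrays of a tissue or on none, which gave 27 ratios per comparison. With the scaled signals, none of the 27 passed between 0 D and normal, between −30 D and normal, or between −30 D and 0 D, while 4.91%, 5.39% and 4.43% of the ratios of all miRNAs detected on both arrays passed. In the same order, 1, 0 and 0 of the members' ratios passed without scaling, 0, 1 and 1 after quantile normalization, and 1, 3 and 1 with the printed total gene signal. The printed total departed from the sum of the probes on some arrays of miR-181a-5p, miR-181b-5p and miR-181d-5p, and its counts are not read as changes. The range of the log2 ratios of −30 D over normal was −0.51 to 0.54 for miR-181a-5p, −0.44 to 0.39 for miR-181b-5p, −0.75 to 0.23 for miR-181c-5p and −0.64 to 0.33 for miR-181d-5p.

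In retina, the tissue richest in the family, all 4 members were lower on the −30 D array than on the normal one. The log2 ratios were −0.16 ± 0.17 (propagated probe error) for miR-181a-5p, −0.26 ± 0.15 for miR-181b-5p, −0.20 ± 0.16 for miR-181c-5p and −0.64 ± 0.27 for miR-181d-5p. The median over the 222 miRNAs detected on both retina arrays was −0.22, and the first 3 members lay near it. The value of miR-181d-5p rests on its dimmer probe, which exceeded 3 errors on the normal array but missed this limit with the −30 D lens. On the brighter probe alone it was −0.28 ± 0.28.

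The largest departures elsewhere were in the brain regions, sclera and iris. In the LGN, miR-181a-5p had 48.1 in the normal, 65.8 in the 0 D and 69.8 in the −30 D group, with log2 ratios of 0.45 ± 0.18 and 0.54 ± 0.18 over normal, against a median of 0.028 and 0.14 for all miRNAs detected there. In SCN it had 36.4, 34.5 and 25.7, with a log2 ratio of −0.51 ± 0.23 of −30 D over normal, while the median was −0.062. Part of the latter value came from the dimmer probe, and on the brighter one it was −0.24 ± 0.23. In the LGN the brighter probe gave the same 0.54 ± 0.21. In sclera miR-181c-5p had 19.2, 14.1 and 11.4 (log2 ratio of −30 D over normal −0.75 ± 0.31), but −0.19 ± 0.32 on the brighter probe. In iris miR-181a-5p had 17.6, 21.2 and 25.3 (log2 ratio 0.53 ± 0.22), and 0.29 ± 0.23 on the brighter probe. The median ratio of −30 D over normal for all miRNAs detected on both arrays was −0.18 in sclera and 0.015 in iris. The brighter-probe value of miR-181c-5p in sclera thus lay near the median there. Of the 27 ratios of −30 D over normal, 7 exceeded 2 errors with the summed signal and 1, miR-181a-5p in LGN, with the brighter probe alone. With 1 array of pooled RNA per tissue and group there is no spread between animals to set these against.

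**Figure D4:**
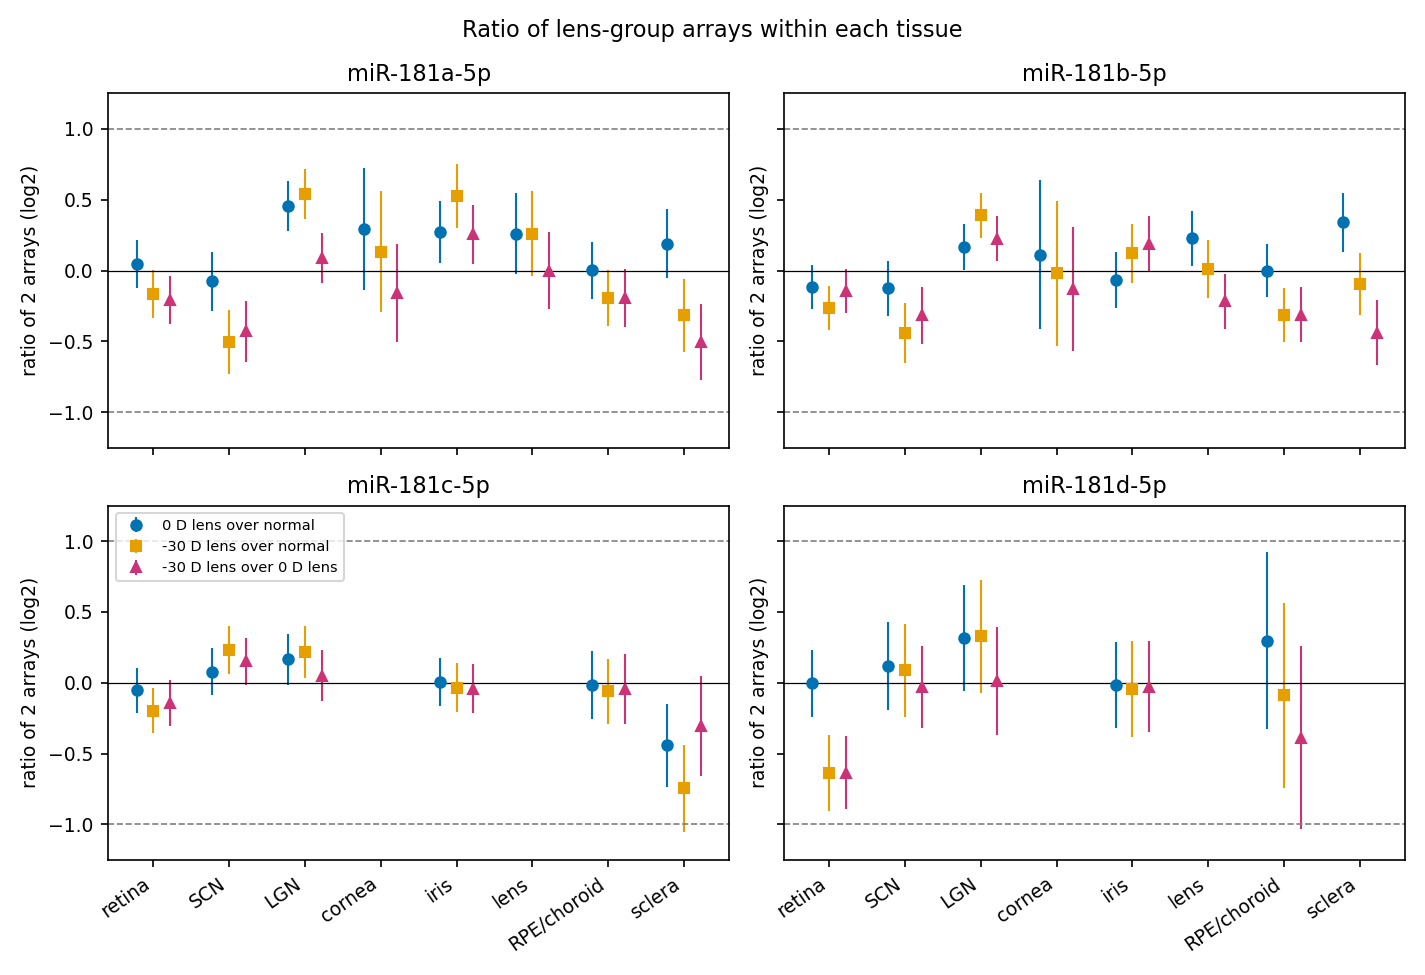
Log2 ratio of 2 lens-group arrays within each tissue (points; bars, propagated probe error) for each member, with dashed lines at ratios of 2 and 0.5. All points lie between the dashed lines, the most distant being miR-181c-5p in sclera at −0.75 and miR-181d-5p in retina at −0.64 (both −30 D over normal). Tissues without points did not detect the member.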

How the data were processed

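The authors scanned 24 one-color arrays and digitized them with Agilent Feature Extraction 10.7.1.1. The deposited scanner files give an intensity for each probe after background subtraction, with its error, and a detection flag. They also print a total gene signal, which for 52 to 96 detected miRNAs per array departed by over 1% from the sum of the miRNA's probes, so that this sum over probes above 3 errors was used. The deposited table called normalized was not used. Sums were scaled until the upper quartile (75th percentile) of the 79 miRNAs that every array detected was equal, and undetected miRNAs were set to the array's lowest detected signal. log2 values of 352 miRNAs detected on at least 3 arrays were fitted with limma 3.58.1 (R 4.3.3; tissue and lens group as terms; Benjamini-Hochberg, threshold 0.05) after a test on simulated data. Named miRNAs were the members, their 3p arms, seed sharers, cell type markers and the 5 most similar miRNAs. The family was proposed, and the lists were chosen, with earlier results of these data known. No saturated spots were found among the probes of the members and their 3p arms. The number of arrays limits the precision.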

Additional observations from a re-analysis of the deposited data

How the results depend on the processing

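The retina comparison against the other ocular tissues kept its direction and call for miR-181a-5p, miR-181b-5p and miR-181c-5p under all alternatives run, at 2.14 to 4.51, 2.09 to 4.15 and 0.79 to 5.02 log2 units. For miR-181d-5p the normexp correction gave −0.20. In SCN and LGN against the 5 ocular tissues, miR-181a-5p was 0.11 after quantile normalization, 0.089 with normexp and −0.25 with the printed total gene signal. miR-181b-5p was −0.036, 0.097 and 0.19 in that order, and miR-181d-5p 0.19 after quantile normalization and −0.18 with normexp. In retina against SCN and LGN, miR-181d-5p was 0.38 with the sum over all probes, −1.05 with the printed total, −0.020 with normexp and 0.60 with an intensity trend (adjusted p = 0.0547). Leaving out 1 lens group gave 0.42 to 0.84 for miR-181d-5p and 0.72 to 0.93 for miR-181c-5p. The printed total is faulty for miR-181a-5p on 11 of 24, for miR-181b-5p on 3 of 24 and for miR-181d-5p on 13 of 15 detected arrays. Its values do not bear on the direction of these members. The other causes were not tested.

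No lens comparison of a member was called under any alternative, and signs near 0 turned. Between 0 D and normal, the printed total gave −0.18 for miR-181a-5p and −0.11 for miR-181c-5p. Normexp gave −0.021 for miR-181b-5p, −0.019 for miR-181c-5p and −0.068 for miR-181d-5p. miR-181c-5p was −0.094 after quantile normalization, −0.033 with undetected signals at 0.1 or at 1 floor for all arrays, and −0.039 in ocular tissues only, and leaving out 1 tissue gave −0.10 to 0.066. Between −30 D and normal, miR-181a-5p was −0.015 after quantile normalization, −0.23 with the printed total, −0.011 with normexp and −0.036 to 0.11 without 1 tissue. miR-181c-5p was 0.039 with the sum over all probes. miR-181d-5p was −0.033 after quantile normalization, −0.045 and −0.069 with the 0.1 and the common floor, −0.071 with all probes, −0.0091 with normexp, −0.038 in ocular tissues only and −0.11 to 0.12 without 1 tissue. Between −30 D and 0 D, normexp gave 0.012 for miR-181c-5p and 0.059 for miR-181d-5p, the printed total 0.20 for miR-181d-5p, and leaving out 1 tissue −0.23 to 0.044 and −0.26 to 0.013. Of the members' within-tissue ratios, 1 of 0 D to normal passed the study's criterion without scaling, 1 of −30 D to normal and 1 of −30 D to 0 D passed after quantile normalization, and 1 of 0 D to normal, 3 of −30 D to normal and 1 of −30 D to 0 D passed with the printed total, against 0 in each comparison with the scaled signals.

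Scaling moved the median of all miRNAs in the retina comparison from −0.70 to 0.25 without scaling and to −1.07 with quantile normalization, in the SCN and LGN comparison from −0.32 to 0.24 and −1.20, and in retina against SCN and LGN from −0.27 to 0.13 and 0.55. The 75th percentile over all miRNAs lay at the undetected value on all 24 arrays and was not run, and a slide block could not be fitted. The numbers of tissue pairs called, under alternatives added after seeing the data, were 17 to 25, 22 to 26, 21 to 25 and 12 to 24 of 28 for the members a to d. Those of c and d include pairs with tissues that did not detect the member. The labels carry no replicate numbers, and the tissue served as the block in the lens comparisons.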
